A study of Homo sapiens with 18 samples.

Results

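The 10 genes HSPA5, HSP90B1, CALR, CANX, PDIA3, PDIA4, PDIA6, DNAJB9, SDF2L1 and HERPUD1 encode chaperones, folding enzymes and quality-control factors of the endoplasmic reticulum (ER). They were taken by gene name from a table of 41285 genes, each name matched 1 entry, and all 10 passed the filter on low counts, which left 22143 genes. Their RNA was followed in 18 libraries from 3 isogenic lines of K562, a chronic myeloid leukaemia cell line with erythroid features, with 2 libraries in each of 9 groups. The parental line, which carries no dCas9 fusion named in the labels, was untreated or received recombinant interferon alpha (IFN, 1000 U/mL for 24 hours). In the VPR-D9 line doxycycline induces dCas9-VPR, an activator directed at the interferon-induced gene SAMD9. Its groups were untreated, D2000 and D6, with D2000 (2 µg/mL) and D6 given doxycycline without IFN. In the KRAB-D9 line doxycycline induces dCas9-KRAB, a repressor, and its groups were untreated, IFN, doxycycline (2 µg/mL), and both, with doxycycline started 24 hours before IFN and continued with it. The doxycycline dose of D6, the meaning of the codes D2000 and D6, the duration of doxycycline without IFN, and whether each line is 1 clone are not stated in the labels. Parental cells with doxycycline were not analysed here, so effects of the drug, of the fusion protein and of the SAMD9 change cannot be told apart.

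Proteins that enter the ER are folded there before they move on to the cell surface or out of the cell. HSPA5 (BiP), an Hsp70, binds exposed hydrophobic stretches, and it also holds the stress sensors IRE1, PERK and ATF6 inactive. When unfolded protein builds up, the sensors start the unfolded protein response, in which the transcription factors ATF6, XBP1 and ATF4 raise chaperone, degradation and amino acid supply genes. CALR and CANX are lectins that hold glycoproteins, PDIA3, PDIA4 and PDIA6 form and rearrange disulfide bonds, and CALR and PDIA3 also help to load peptides onto class I molecules.

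In the deposited GRCh38 annotation HSPA5 (ENSG00000044574.9) spans chr9:125234853-125241382, HSP90B1 (ENSG00000166598.16) spans chr12:103930107-103953931, CALR (ENSG00000179218.15) spans chr19:12938578-12944489, CANX (ENSG00000127022.16) spans chr5:179678628-179731641 and PDIA3 (ENSG00000167004.13) spans chr15:43746410-43773278. PDIA4 (ENSG00000155660.11) spans chr7:149003062-149028662, PDIA6 (ENSG00000143870.13) spans chr2:10783391-10837977, DNAJB9 (ENSG00000128590.5) spans chr7:108569867-108574850, SDF2L1 (ENSG00000128228.5) spans chr22:21642302-21644299, and HERPUD1 (ENSG00000051108.15) spans chr16:56932142-56944864.

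Many ER chaperone genes carry an ER stress response element (ERSE) before their start site, in which NF-Y binds CCAAT and ATF6 binds CCACG. RefSeq promoter windows (GRCh38.p14, 250 bases before to 50 after a start site) were matched by symbol for 9 of the 10 members; PDIA3 was not matched. CANX has 4 such windows, PDIA4 and PDIA6 have 2 each, and the others have 1. The windows were searched on both strands for the ERSE (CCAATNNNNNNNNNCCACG), the ERSE-II (ATTGGNCCACG) and the UPRE (TGACGTGG), and no match overlapped another. The ERSE was found in 27 of all 35116 windows (0.0769%), which belong to 25 of 27305 gene symbols, and in windows of 5 members, HSPA5, HSP90B1, CALR, CANX and PDIA6. The ERSE-II was found in 19 windows of all genes (0.0541%), among them those of SDF2L1 and HERPUD1. The UPRE was in 256 windows (0.729%) and in none of the members' windows, and PDIA4 and DNAJB9 held none of the 3 elements. Only exact matches to the given letters were counted, so elements with a mismatch were missed. The matches are shown because 7 of the members held an ERSE or an ERSE-II. The ERSE is known from ER chaperone genes, so its presence in these members is not an independent result. Each line is written 5′ to 3′ on the gene's strand with 10 flanking bases, capitals mark the element, and an element on the opposite strand reads as its reverse complement.
HSPA5, minus strand gene, chr9:125241381-125241419, bases -66 to -48 from the start site: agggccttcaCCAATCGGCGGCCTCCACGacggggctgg
HSP90B1, plus strand gene, chr12:103930206-103930244, bases -194 to -176: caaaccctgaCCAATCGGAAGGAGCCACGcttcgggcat
HSP90B1, element on the opposite strand, chr12:103930311-103930349, bases -89 to -71: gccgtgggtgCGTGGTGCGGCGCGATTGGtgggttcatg
CALR, plus strand gene, element on the opposite strand, chr19:12938374-12938412, bases -225 to -207: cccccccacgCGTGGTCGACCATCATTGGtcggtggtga
CANX, plus strand gene, chr5:179698768-179698806, bases -151 to -133 in 1 of its windows: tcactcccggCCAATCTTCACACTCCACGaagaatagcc
PDIA6, minus strand gene, chr2:10812843-10812881, bases -86 to -68 in 1 of its windows: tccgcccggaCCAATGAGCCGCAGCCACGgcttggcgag
SDF2L1, plus strand gene, ERSE-II on the opposite strand, chr22:21642104-21642134, bases -188 to -178: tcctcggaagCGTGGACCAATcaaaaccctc
HERPUD1, plus strand gene, ERSE-II, chr16:56932015-56932045, bases -117 to -107: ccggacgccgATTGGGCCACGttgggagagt

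The CANX element is the same stretch in 3 of its 4 windows, at -151 to -133, -189 to -171 and -9 to 9 from the respective start sites, and the other PDIA6 window held no element.

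An exact match to an element and a shared course did not always go together. DNAJB9 held none and was not called lower with doxycycline or in D2000, although it rose with IFN in KRAB-D9 (0.35). PDIA4 also held none and moved with HSPA5. HERPUD1 has an ERSE-II and was not called lower with doxycycline or in D2000 either, although it was lower in untreated VPR-D9 than in parental cells (-0.52). The part of the elements in the changes was not tested. The 250 bases before the start site of HSPA5, the best known target of the ERSE, and of DNAJB9 are given, with exact matches in capitals. Stretches that resemble an element but differ from it in some bases stay in lower case.
HSPA5, chr9:125241344-125241593, minus strand: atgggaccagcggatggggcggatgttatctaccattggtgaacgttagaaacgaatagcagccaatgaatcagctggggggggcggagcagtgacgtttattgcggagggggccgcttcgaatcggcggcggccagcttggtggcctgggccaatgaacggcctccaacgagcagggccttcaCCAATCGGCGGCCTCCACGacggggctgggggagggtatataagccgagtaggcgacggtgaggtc
DNAJB9, chr7:108569624-108569873, plus strand: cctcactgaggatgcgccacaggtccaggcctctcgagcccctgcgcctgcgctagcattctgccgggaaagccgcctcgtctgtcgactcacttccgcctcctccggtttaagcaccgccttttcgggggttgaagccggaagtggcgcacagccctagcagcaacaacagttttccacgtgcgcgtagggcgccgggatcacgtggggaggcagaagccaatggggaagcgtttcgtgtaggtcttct

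**Figure D1:**
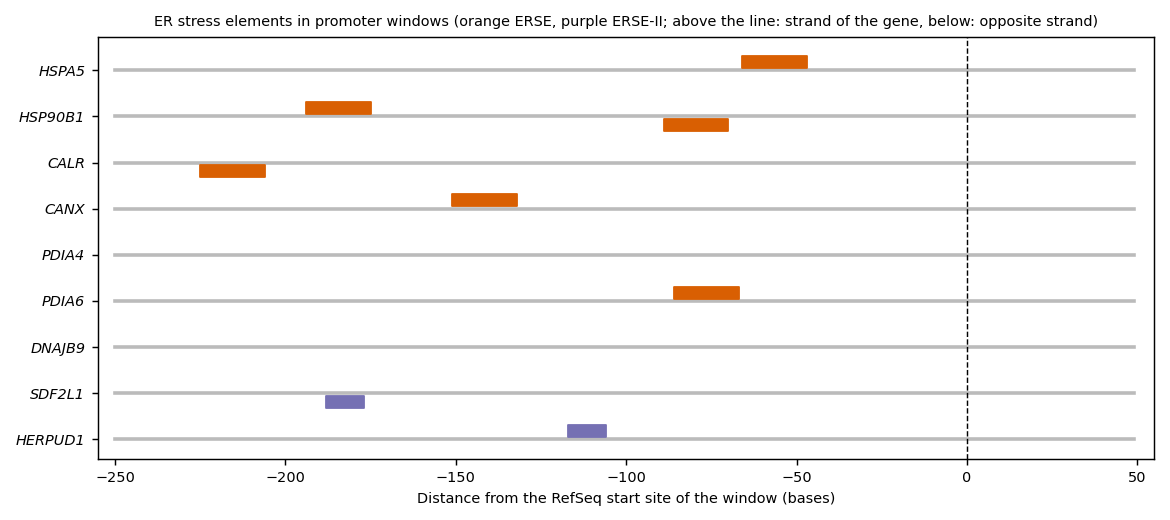
Positions of the ERSE (orange) and ERSE-II (purple) in the promoter windows of the 9 matched members (1 window drawn for each gene), as distance in bases from the start site at 0, with elements on the gene's strand above the line and those on the opposite strand below. In the windows drawn the elements lie between 225 and 48 bases before the start site, HSP90B1 has 2, and PDIA4 and DNAJB9 have no exact match.

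Libraries held 32694200 to 63037568 counts. SAMD9 followed the labels. In KRAB-D9 it had 40 and 16 counts untreated and 0 and 6 with doxycycline. It had 47 and 40 there with doxycycline and IFN, and 1708 and 3044 with IFN alone. SAMD9 lay at 936 to 974 CPM in D2000 and D6 against 59.9 and 61.4 CPM in untreated VPR-D9. Untreated KRAB-D9 was already low, at 0.75 and 0.364 CPM against 9.31 and 9.05 CPM in untreated parental cells. CPM is the count relative to the library total after TMM scaling (an adjustment for RNA composition). The erythroid genes GATA1, KLF1, TAL1, HBG1 and TFRC were present in every library (14.5 CPM or more), while the lymphoid genes CD3E, CD2 and CD79A stayed at or below 1.23 CPM. Of the fibroblast and epithelial genes, DCN, PDGFRB and CDH1 stayed at or below 0.569 CPM, but EPCAM (30.4 to 98.8 CPM) and, in some libraries, COL1A1 and COL1A2 (up to 31.4 and 36.8 CPM) were present. Within its group, the KRAB-D9 IFN pair varied most, 11.8 times counting noise against 4.43 to 6.4 times in the others, and its replicate 1 was the shallowest library.

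Together the 10 genes took 0.305 to 0.61% of all counts of a library. Per kilobase of the deposited gene length, CALR was the most abundant in untreated parental cells with 367 ± 11 CPM per kb (mean ± SD, n = 2). SDF2L1, a stromal-derived-factor-2-like partner of BiP, followed with 262 ± 4.0 CPM per kb, then HSPA5 with 118 ± 0.057 and CANX with 109 ± 0.028. PDIA4 stood at 98.3 ± 1.5, PDIA3 at 92.9 ± 2.1, PDIA6 at 71.7 ± 0.93 and HSP90B1, the ER Hsp90, at 67.1 ± 1.3 CPM per kb. DNAJB9 (ERdj4, a J-protein that hands clients and IRE1 to BiP) stood at 8.0 ± 0.24 and HERPUD1, a membrane protein of the degradation machinery, at 4.83 ± 0.28 CPM per kb. No neighbours in this order overlapped between their 2 libraries. The deposited lengths (13092 bases for HSP90B1 and 13764 for CANX, against 2802 for CALR) are shorter than the gene spans for every member but HSPA5. For HSPA5 the length of 6530 bases equals the span. The order above depends on these lengths. The 8 abundant members and the 2 scarce ones also differed in how they varied. Between the lowest and the highest group mean the abundant members spanned 2.04-fold (PDIA6) to 3.4-fold (SDF2L1), while DNAJB9 spanned 1.43-fold and HERPUD1 1.56-fold. D2000 was the lowest group for each of the 8, and an IFN group of the parental or KRAB-D9 line was the highest.

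**Figure D2:**
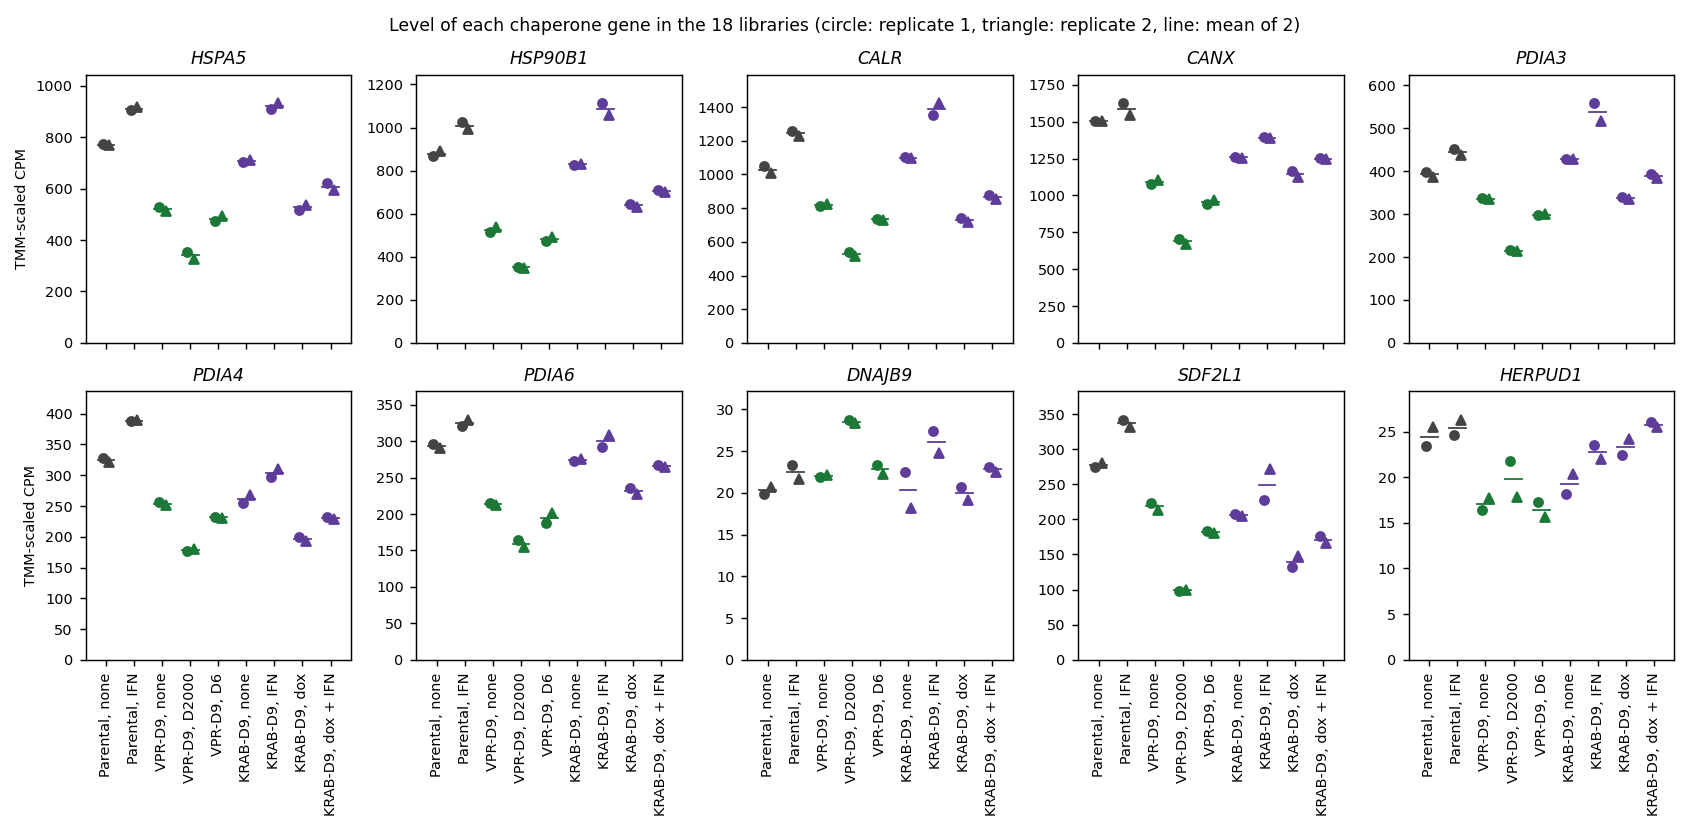
TMM-scaled CPM of each member (y axis from 0, own scale per gene) in the 18 libraries by group, with replicate 1 as a circle, replicate 2 as a triangle and the mean of 2 as a line; grey is parental, green VPR-D9 and purple KRAB-D9. The 8 abundant genes share 1 outline with the lowest points in D2000, and DNAJB9 has its highest points there.

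IFN raised most ER chaperones by a small amount in parental cells. HSPA5 was at 772 and 772 CPM in the untreated libraries and at 905 and 918 CPM with IFN. The IFN libraries lay above both untreated ones, a log2 fold change of 0.24 ± 0.04 (± standard error, edgeR, Benjamini-Hochberg adjusted p = 1.64e-05, n = 2 and 2). HSP90B1, which folds integrins and Toll-like receptors, went from 867 and 891 to 1024 and 993 CPM (0.20 ± 0.04). CALR went from 1050 and 1007 to 1260 and 1226 CPM (0.27 ± 0.03, edgeR adjusted p = 2.71e-07). Its membrane-bound partner CANX, at 1506 and 1506 against 1626 and 1548 CPM, was not called (0.08 ± 0.03, edgeR adjusted p = 0.271), although its libraries did not overlap either. Of the disulfide isomerases, PDIA4 rose by 0.26 ± 0.04, PDIA3 by 0.18 ± 0.04 and PDIA6 by 0.14 ± 0.04. SDF2L1 rose from 274 and 280 to 341 and 332 CPM (0.28 ± 0.06). DNAJB9 (0.15 ± 0.09) and HERPUD1 (0.06 ± 0.09) were not called. In all, 7 of the 10 members rose and none fell, against 3.03% higher and 4.34% called either way among all genes tested, and the members' median was 0.19 against 0.00 over all genes. Of the 7384 tested genes within the members' range of mean level (21.6 to 1208 CPM), 5.97% were higher. Some calls of small rises were lost in refits without 1 library, which leave 1 library in a group and fewer degrees of freedom. PDIA6 was not called without any 1 of the 4 libraries (edgeR adjusted p = 0.0584 to 0.296), SDF2L1 was not called without untreated replicate 1 or IFN replicate 1 (0.0503 for each), and PDIA3 was not called without untreated replicate 2 (0.0676).

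IFN also raised the chaperones in KRAB-D9 cells. HSPA5 went from 703 and 713 to 910 and 932 CPM (0.38 ± 0.04, edgeR, Benjamini-Hochberg adjusted p = 4.09e-10, n = 2 and 2) and HSP90B1 from 827 and 833 to 1113 and 1057 CPM (0.39 ± 0.04). CALR went from 1102 and 1099 to 1351 and 1423 CPM (0.33 ± 0.03), and CANX, here called, from 1264 and 1252 to 1398 and 1389 CPM (0.15 ± 0.03). For these 4 genes every IFN library lay above every untreated one. PDIA3 rose by 0.33 ± 0.04, PDIA4 by 0.22 ± 0.04, SDF2L1 by 0.27 ± 0.06 and DNAJB9 by 0.35 ± 0.09. PDIA6 (0.13 ± 0.04, edgeR adjusted p = 0.052) and HERPUD1 (0.24 ± 0.10, 0.151) were not called. Thus 8 of the 10 rose, against 3.98% higher, 2.42% lower and 6.4% called among all genes, with a median of 0.30 against 0.00, and 8.19% were higher among genes at the members' level. Only 4 were called (HSPA5, HSP90B1, CALR and PDIA3) in a model of the 2 compared groups alone. The SDF2L1 call was lost without IFN replicate 2 (0.13, edgeR adjusted p = 0.0707), that of DNAJB9 without untreated replicate 2 or IFN replicate 1 (0.34 and 0.106), and that of CANX without untreated replicate 2 (0.0541), while PDIA6 was called without IFN replicate 1 (0.17, 0.00785).

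With the repressor induced, IFN again raised 8 of the 10 members in KRAB-D9 (3.12% of all genes were higher, 1.77% lower and 4.89% called, and 6.65% were higher at the members' level). Every IFN library lay above every doxycycline library for each of the 10 genes, the 2 uncalled ones included. With 2 libraries a group this is a weak sign, and the share of all genes without overlap was not counted. HSPA5 went from 519 and 537 to 621 and 595 CPM (0.20 ± 0.04), CALR from 739 and 721 to 880 and 852 CPM (0.25 ± 0.03), and SDF2L1 from 132 and 147 to 176 and 166 CPM (0.29 ± 0.06). PDIA3 (0.20 ± 0.04), PDIA4 (0.23 ± 0.04), PDIA6 (0.19 ± 0.04), HSP90B1 (0.14 ± 0.04) and CANX (0.13 ± 0.03) rose as well, and DNAJB9 (0.20 ± 0.09) and HERPUD1 (0.14 ± 0.09) were not called. Some of the smaller calls were lost in refits without doxycycline replicate 2 or without replicate 1 of both treatments. The calls lost in 1 or both of those cases were those of CANX, HSP90B1, PDIA6 and SDF2L1; CANX was also lost without replicate 2 of both treatments (edgeR adjusted p = 0.0905) and SDF2L1 without doxycycline replicate 1 (0.0758).

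Doxycycline lowered the chaperones in KRAB-D9 cells. HSPA5 fell from 703 and 713 to 519 and 537 CPM (-0.42 ± 0.04, edgeR, Benjamini-Hochberg adjusted p = 1.54e-11, n = 2 and 2) and HSP90B1 from 827 and 833 to 647 and 632 CPM (-0.38 ± 0.04). CALR fell from 1102 and 1099 to 739 and 721 CPM (-0.59 ± 0.04, edgeR adjusted p = 2.46e-16), and CANX less, from 1264 and 1252 to 1164 and 1122 CPM (-0.14 ± 0.03). All doxycycline libraries lay below all untreated ones for these 4 genes. In bulk RNA, fewer cells that express a gene and less RNA per cell cannot be told apart. PDIA4 fell by 0.41 ± 0.04, PDIA3 by 0.35 ± 0.04 and PDIA6 by 0.24 ± 0.04. SDF2L1 fell from 208 and 205 to 132 and 147 CPM (-0.56 ± 0.06). The scarce members did not follow. DNAJB9, at 22.5 and 18.2 against 20.7 and 19.2 CPM, was not called (-0.03 ± 0.09, edgeR adjusted p = 0.867) and its libraries overlapped. HERPUD1 rose from 18.1 and 20.4 to 22.4 and 24.2 CPM (0.28 ± 0.09, edgeR adjusted p = 0.0245), a call lost without untreated replicate 1 (0.19, 0.303) or doxycycline replicate 2 (0.22, 0.201). The CANX call was also lost without doxycycline replicate 2 (-0.11, 0.0661). So 8 members fell and 1 rose, against 12.7% lower, 12% higher and 24.7% called among all genes, with a median of -0.36 against 0.02. Among the genes at the members' level, 28.8% were lower and 19.5% higher.

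With IFN present, doxycycline lowered the same 8 genes and left the other two uncalled. HSPA5 was at 621 and 595 CPM with both treatments against 910 and 932 CPM with IFN alone (-0.60 ± 0.04, edgeR, Benjamini-Hochberg adjusted p = 1.38e-15, n = 2 and 2). HSP90B1 fell by 0.62 ± 0.04, CALR by 0.68 ± 0.03, PDIA3 by 0.47 ± 0.04, PDIA4 by 0.40 ± 0.04, SDF2L1 by 0.55 ± 0.06, PDIA6 by 0.18 ± 0.04 and CANX by 0.16 ± 0.03. The libraries of the 2 groups did not overlap for any of the 10 genes, the 2 uncalled ones included, and the share of all genes without overlap was not counted. DNAJB9 changed by -0.19 ± 0.09 and HERPUD1 by 0.18 ± 0.09, neither called. Among all genes 11.9% were lower, 10.4% higher and 22.3% called, and at the members' level 27.3% were lower (46.7% of the calls were higher, or 61.4% with library totals in place of TMM). The CANX call was lost in a model of the 2 groups alone (edgeR adjusted p = 0.071).

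Set against untreated KRAB-D9 cells, cells with both treatments had 6 members lower and 1 higher (12.5% of all genes lower, 12.5% higher and 25% called, and 28% lower at the members' level; 49.9% of the calls were higher, or 60.6% with library totals). CALR remained lowest relative to untreated cells (-0.34 ± 0.03, edgeR, Benjamini-Hochberg adjusted p = 2.9e-10), followed by SDF2L1 (-0.27 ± 0.06), HSP90B1 (-0.23 ± 0.04), HSPA5 (-0.22 ± 0.04), PDIA4 (-0.18 ± 0.04) and PDIA3 (-0.14 ± 0.04). CANX, at 1251 and 1250 CPM against 1264 and 1252, and PDIA6, at 267 and 264 against 272 and 276 CPM, were not called (-0.01 ± 0.03 and -0.05 ± 0.04). HERPUD1 was higher, at 26 and 25.5 against 18.1 and 20.4 CPM (0.42 ± 0.09, edgeR adjusted p = 0.00053). DNAJB9 was not called (0.16 ± 0.09) but was without untreated replicate 1 (0.32, edgeR adjusted p = 0.0251), and the PDIA3 call was lost without replicate 2 of both treatments (-0.13, 0.056).

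The lectin pair shows how members of 1 pathway moved by different amounts. Per kilobase, CALR RNA was 4.28 and 4.31 times CANX RNA in the untreated KRAB-D9 libraries, 3.12 and 3.16 times with doxycycline, 4.75 and 5.03 times with IFN, and 3.46 and 3.35 times with both. This ratio within a library does not depend on scaling, and the doxycycline libraries lay below the untreated ones. In VPR-D9 it was 3.72 and 3.66 untreated, 3.74 and 3.77 in D2000 and 3.83 and 3.72 in D6. These ratios were not tested.

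**Figure D3:**
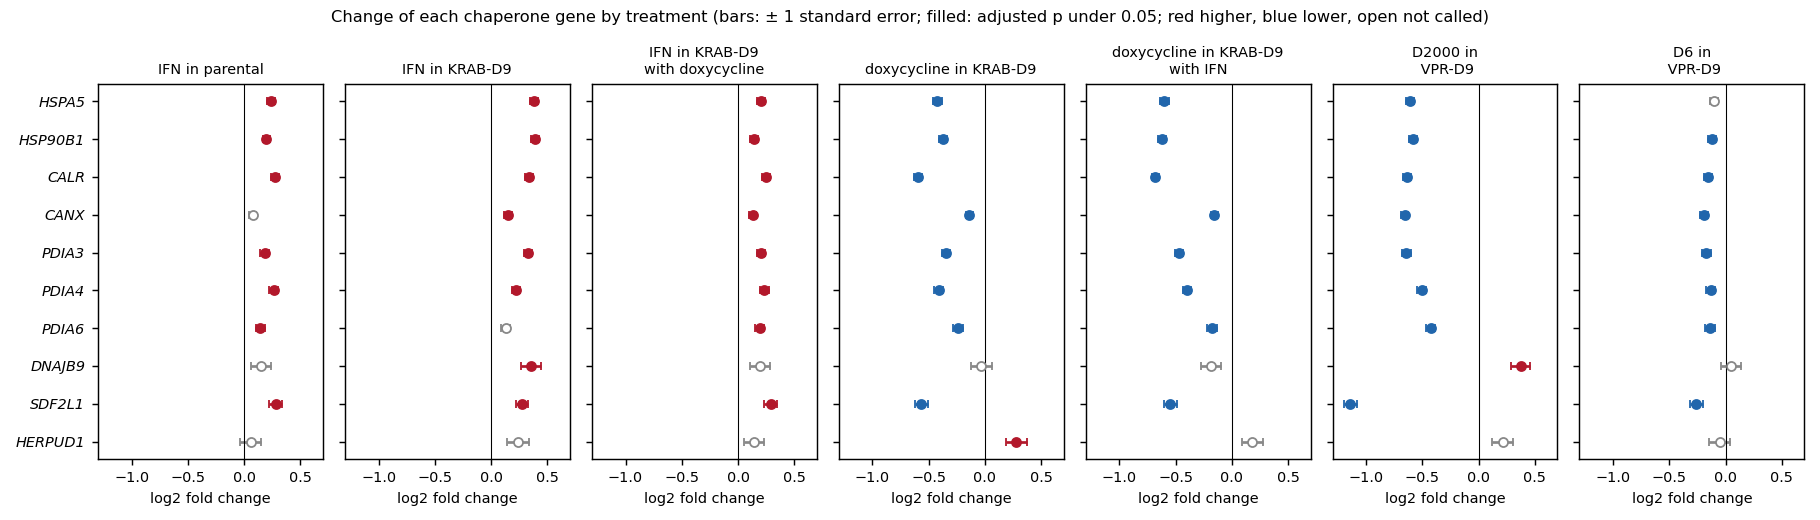
Log2 fold change (x axis) of each member in the 7 treatment comparisons, with bars of 1 standard error, filled points for adjusted p under 0.05, red for higher and blue for lower. The IFN panels lie to the right of 0, and the doxycycline and D2000 panels to the left for 8 genes with SDF2L1 in D2000 at -1.14. DNAJB9 and HERPUD1 are not called lower in those panels.

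The D2000 group of VPR-D9 had the lowest chaperone levels of the series. SDF2L1 fell from 223 and 214 to 98.2 and 100 CPM, the largest change of a member in any of the 7 treatment comparisons (-1.14 ± 0.06, edgeR, Benjamini-Hochberg adjusted p = 6.52e-16, n = 2 and 2). HSPA5 fell from 527 and 513 to 354 and 327 CPM (-0.61 ± 0.04) and HSP90B1 from 513 and 538 to 354 and 348 CPM (-0.58 ± 0.04). CALR fell from 815 and 823 to 539 and 516 CPM (-0.64 ± 0.04), and CANX from 1075 and 1105 to 708 and 673 CPM (-0.66 ± 0.03). PDIA3 (-0.64 ± 0.04), PDIA4 (-0.51 ± 0.04) and PDIA6 (-0.43 ± 0.04) fell too. For each of these 8 genes both D2000 libraries lay below both untreated ones. DNAJB9 rose, from 21.9 and 22.2 to 28.7 and 28.4 CPM (0.37 ± 0.09, edgeR adjusted p = 0.000333). HERPUD1, at 16.4 and 17.7 against 21.8 and 17.8 CPM, was not called (0.21 ± 0.09, edgeR adjusted p = 0.058). It was called without D2000 replicate 2 (0.36, 0.00514), with no filter on low counts (0.22, 0.0378) and with library totals (0.44, 0.000125).

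These counts, 8 lower and 1 higher, stand against a wide change of the transcriptome in D2000, with 24.2% of all genes lower, 21.9% higher and 46.1% called (47.6% of the calls higher, or 68.6% with library totals). Of the genes at the members' level, 56% were lower and 21.8% higher. The members' median was -0.60 against 0.06 over all genes. Library totals in place of TMM moved the median of all genes to 0.29 and the members' values with it. The 8 genes still fell then, by less: SDF2L1 was at -0.91, CANX at -0.43, PDIA3 at -0.41, CALR at -0.41, HSPA5 at -0.38, HSP90B1 at -0.35, PDIA4 at -0.28 and PDIA6 at -0.20.

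D6 lowered 7 members, by less than D2000. CALR went from 815 and 823 to 735 and 731 CPM (-0.16 ± 0.03, edgeR, Benjamini-Hochberg adjusted p = 0.00214, n = 2 and 2), CANX from 1075 and 1105 to 942 and 967 CPM (-0.19 ± 0.03), and SDF2L1 from 223 and 214 to 183 and 181 CPM (-0.26 ± 0.06). PDIA3 fell by 0.17 ± 0.04, PDIA6 by 0.14 ± 0.04, PDIA4 by 0.13 ± 0.04 and HSP90B1 by 0.12 ± 0.04. HSPA5, at 527 and 513 against 474 and 494 CPM, was not called (-0.10 ± 0.04, edgeR adjusted p = 0.0922), nor were DNAJB9 (0.05 ± 0.09) and HERPUD1 (-0.05 ± 0.10). The 7 lower members compare with 3.41% lower, 3.19% higher and 6.6% called among all genes, and 8.9% lower at the members' level (48.4% of the calls higher, or 69% with library totals). Only 4 were called with library totals, with no filter on low counts, and without untreated replicate 1, untreated replicate 2 or D6 replicate 1, and 5 without D6 replicate 2; CALR, CANX and PDIA3 were called in each of these. All 10 members differed between D6 and D2000 (40.4% of all genes did, and 71.8% at the members' level; 53.6% of the calls were higher in D6, or 31.2% with library totals). The 8 abundant ones were higher in D6, from PDIA6 (0.29 ± 0.04) to SDF2L1 (0.88 ± 0.06). DNAJB9 (-0.32 ± 0.09) and HERPUD1 (-0.26 ± 0.09) were lower, the latter not called without D2000 replicate 1 (edgeR adjusted p = 0.504) or D6 replicate 2 (0.223). SAMD9 was at 974 and 948 CPM in D2000 and at 936 and 960 CPM in D6. TMM factors were 1.17 and 1.19 in the D2000 libraries and 0.95 to 1.04 in all others, and the part of RNA composition in these differences was not tested.

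Tests of the differences between effects gave few calls for IFN and more for doxycycline. The IFN effect was not called different between KRAB-D9 and parental cells for any member, with 0.303% of all genes called (0 members by edgeR, 1 by DESeq2, and 3 at an unadjusted edgeR p under 0.05). The differences ran from -0.04 ± 0.05 for PDIA4 to 0.20 ± 0.13 for DNAJB9. Without KRAB-D9 IFN replicate 2, HSP90B1 (0.22, edgeR adjusted p = 0.00198) and PDIA3 (0.20, 0.0137) were called, and DESeq2 called HSP90B1 (0.19, 0.0231). Leaving out that library moved the calls over all genes from 67 of 22143 to 992 of 23992. Within KRAB-D9 the interaction of IFN and doxycycline was called for HSP90B1 alone (-0.24 ± 0.05, edgeR Benjamini-Hochberg adjusted p = 0.0242), where 0.0948% of all genes were lower, 0.0632% higher and 0.158% called, with the IFN rise smaller under doxycycline (0.14 against 0.39). This call was lost in a model without the parental and VPR-D9 groups (adjusted p = 0.28) and without any of untreated replicate 1, untreated replicate 2, doxycycline replicate 1 or replicate 2 of both treatments (edgeR adjusted p = 0.0718 to 0.122). Without IFN replicate 2 PDIA3 was called as well (-0.17, 0.043), and the calls over all genes moved from 35 of 22143 to 769 of 23992.

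The doxycycline effect in D2000 cells was more negative than in KRAB-D9 cells for 6 members, and more positive for DNAJB9. Among all genes 19.1% were lower, 12.2% higher and 31.3% called, and at the members' level 46.6% were lower and 60.9% called, so the members' count is near that share (38.9% of the calls higher, or 63.2% with library totals). SDF2L1 (-0.58 ± 0.08, edgeR, Benjamini-Hochberg adjusted p = 1.56e-06) and CANX (-0.52 ± 0.05, 1.53e-11) differed most and kept their sign and call with library totals (-0.38 and -0.33). DNAJB9 differed by 0.40 ± 0.12, a call kept with library totals (0.60) but lost without KRAB-D9 untreated replicate 1 (0.25, adjusted p = 0.196) or doxycycline replicate 2 (0.34, 0.0635). The differences for PDIA3 (-0.30 ± 0.05), HSP90B1 (-0.21 ± 0.05), HSPA5 (-0.19 ± 0.05) and PDIA6 (-0.19 ± 0.06) were not called with library totals, where they were -0.10, -0.01, 0.00 and 0.00. CALR did not pass the test (-0.04 ± 0.05, edgeR adjusted p = 0.587) and turned to 0.15 with library totals (0.00985). The HSPA5 and PDIA6 calls were also lost without D2000 replicate 2 (edgeR adjusted p = 0.145 and 0.168), and that of PDIA6 without KRAB-D9 untreated replicate 1 or doxycycline replicate 1 (0.0527 and 0.0542) and with no filter on low counts (0.0616).

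The lines differed before treatment. In untreated VPR-D9 cells 9 of the 10 members were lower than in parental cells. This compares with 18.2% lower and 36.8% called among all genes and 33.2% lower at the members' level. The libraries did not overlap for any member, the uncalled DNAJB9 included, and the share of all genes without overlap was not counted. HSP90B1 stood at 513 and 538 CPM against 867 and 891 CPM (-0.74 ± 0.04, edgeR, Benjamini-Hochberg adjusted p = 6.51e-20, n = 2 and 2), HSPA5 at 527 and 513 against 772 and 772 CPM (-0.57 ± 0.04) and HERPUD1 at 16.4 and 17.7 against 23.4 and 25.5 CPM (-0.52 ± 0.09). CANX (-0.47 ± 0.03), PDIA6 (-0.45 ± 0.04), PDIA4 (-0.35 ± 0.04), SDF2L1 (-0.34 ± 0.06), CALR (-0.33 ± 0.03) and PDIA3 (-0.22 ± 0.04) were lower too, and DNAJB9 was not called (0.12 ± 0.09). The 9 calls held in each of the alternatives tried. In untreated KRAB-D9 cells the members were split, with 5 lower and 2 higher than in parental cells (14.3% and 14.2% of all genes, 28.5% called; 24.3% and 23.2% at the members' level). SDF2L1 (-0.42 ± 0.06), HERPUD1 (-0.35 ± 0.09), PDIA4 (-0.31 ± 0.04), CANX (-0.26 ± 0.03) and HSPA5 (-0.12 ± 0.04) were lower, and PDIA3 (0.13 ± 0.04) and CALR (0.10 ± 0.03) higher. Without KRAB-D9 untreated replicate 1 there were 3 calls and without parental untreated replicate 2 there were 4, all lower; SDF2L1, PDIA4 and CANX were called in both. The CALR call was also lost without KRAB-D9 untreated replicate 2, with DESeq2 size factors and with no filter on low counts (edgeR adjusted p = 0.125, 0.0503 and 0.146), and that of PDIA3 without KRAB-D9 untreated replicate 2 (0.0632).

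**Figure D4:**
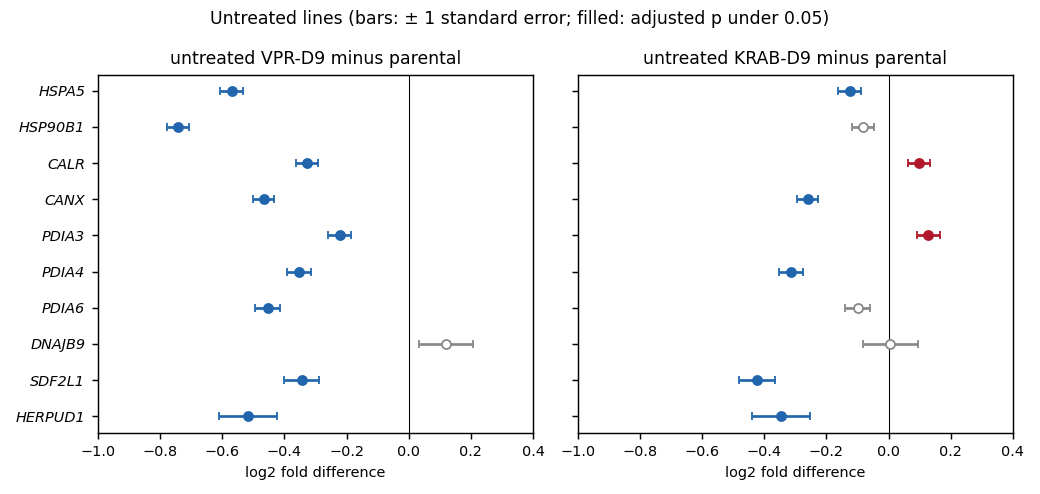
Log2 fold difference (x axis) of each member between untreated VPR-D9 or KRAB-D9 cells and untreated parental cells, with bars of 1 standard error and filled points for adjusted p under 0.05. In VPR-D9 all members but DNAJB9 lie to the left, down to -0.74 for HSP90B1, and in KRAB-D9 CALR and PDIA3 lie to the right.

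The wider pathway was described with 11 lists, each given by its counts of called genes and its median. The counts stand beside the shares at the members' level, which for doxycycline in KRAB-D9 were 28.8% lower and 19.5% higher, and for D2000 56% lower and 21.8% higher. By that measure the D2000 counts of lower genes were at or under the background for the sensors and factors, BiP cofactors, glycan trimming genes, degradation genes, folding factors, ATF4 targets and peptide loading partners. Some list genes lie outside that level, such as CLGN (0.26 CPM in untreated KRAB-D9) and HSP90AB1 (5190 CPM in untreated parental cells). The lists were not matched to it by level, so the measure is rough. Among the sensors and transcription factors of the unfolded protein response, XBP1, the factor made active by IRE1, rose with IFN in KRAB-D9 (86.8 to 102 CPM, 0.23 ± 0.05) and fell with doxycycline (to 73 CPM, -0.25 ± 0.05) and in D2000 (52.4 to 38.5 CPM, -0.44 ± 0.05, edgeR, Benjamini-Hochberg adjusted p = 1.81e-09). ATF4 rose with doxycycline in KRAB-D9 (230 to 322 CPM, 0.49 ± 0.04) and fell in D2000 (170 to 104.9 CPM, -0.70 ± 0.04). ERN1, which encodes IRE1, rose in D2000 (0.85 ± 0.09). Of the 13 genes of this list, 2 rose and 2 fell with doxycycline in KRAB-D9 (median 0.04 against 0.02 over all genes), and 5 rose and 5 fell in D2000 (0.08 against 0.06).

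BiP works with cofactors, of which 1 rose and 4 fell of 11 with doxycycline in KRAB-D9 (median -0.05), and 4 rose and 5 fell in D2000 (-0.09). HYOU1, an ER Hsp110 that recharges BiP, rose with IFN in parental cells (301 to 362 CPM, 0.27 ± 0.04) and in KRAB-D9 (0.20 ± 0.04). It fell with doxycycline in KRAB-D9 (-0.39 ± 0.04) and in D2000 (-0.33 ± 0.04). MANF, which stabilises BiP complexes, rose with IFN in KRAB-D9 (0.46 ± 0.08) and fell with doxycycline (-0.38 ± 0.08) and in D2000 (-0.74 ± 0.08). The J-protein DNAJB11 fell in D2000 (-0.52 ± 0.06).

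Other disulfide isomerases and oxidases fell for 6 of 15 genes and rose in 1 with doxycycline in KRAB-D9 (median -0.15), and fell in 10 and rose in 2 in D2000 (-0.40). P4HB, the founding member of the isomerase family, fell by 0.22 ± 0.04 and by 0.54 ± 0.04, and QSOX1, a sulfhydryl oxidase, fell by 0.45 ± 0.06 in KRAB-D9 and rose in D2000 (0.57 ± 0.06). Translocon and signal recognition genes, which bring proteins into the ER, fell for 15 of 23 genes with doxycycline in KRAB-D9 (1 rose, median -0.17) and in 18 in D2000 (1 rose, -0.28). SSR3 fell by 0.34 ± 0.04 and by 0.56 ± 0.04. Oligosaccharyltransferase genes fell for 5 of 12 genes (1 rose, median -0.11) and in 9 (2 rose, -0.24), with STT3B at -0.26 ± 0.04 and -0.55 ± 0.04. Glycan trimming genes had 1 higher and 2 lower of 7 (median -0.02), and none higher and 3 lower (-0.17), among them the folding sensor UGGT1 (-0.27 ± 0.04 and -0.55 ± 0.04). ER prolyl isomerases and other folding factors had 1 higher and 2 lower of 14 (median -0.11), and 3 higher and 7 lower (-0.25), with PPIB at -0.39 ± 0.04 and -0.37 ± 0.04. FKBP9, of the same list, was not called with doxycycline in KRAB-D9 (0.10 ± 0.07) and rose in D2000 (0.84 ± 0.07).

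Degradation genes were split, 4 higher and 4 lower of 22 with doxycycline in KRAB-D9 (median 0.06) and 6 higher and 10 lower in D2000 (-0.06). EDEM1, which directs misfolded glycoproteins to degradation, rose with IFN in parental cells (41.2 to 65.2 CPM, 0.66 ± 0.06, edgeR, Benjamini-Hochberg adjusted p = 3.28e-10), in KRAB-D9 (0.43 ± 0.07) and in KRAB-D9 with doxycycline (0.46 ± 0.06). DERL1, a channel component, rose with IFN as well (0.22 ± 0.05, 0.24 ± 0.05 and 0.28 ± 0.05). ATF4 targets rose for 10 of 11 genes with doxycycline in KRAB-D9 (median 0.68), with PHGDH at 1.64 ± 0.09. In D2000 3 rose and 1 fell (median 0.25), with PSAT1 at -0.94 ± 0.07. Cytosolic and mitochondrial chaperones, outside the ER, fell for 10 of 20 genes and rose in 1 with doxycycline in KRAB-D9 (median -0.09). They fell in 19 of 20 in D2000 (median -0.77), with the mitochondrial chaperonin HSPD1 going from 1124 to 397 CPM (-1.50 ± 0.03).

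Under IFN, where 5.97% of genes at the members' level rose in parental cells and 8.19% in KRAB-D9, the calls in parental cells were 1 higher of 11 BiP cofactors, 2 of 15 isomerases, 2 of 22 degradation genes, 1 of 23 translocon genes, 1 of 14 folding factors, 1 of 11 ATF4 targets, and none of the oligosaccharyltransferase and glycan trimming genes. In KRAB-D9 they were 3 of 11, 3 of 15 (1 lower), 5 of 22, 5 of 23, none of 14, 5 of 11, 2 of 12 and 1 of 7. Of the 13 sensors and transcription factors 1 fell in parental cells, and 1 rose and 1 fell in KRAB-D9, and of the 20 cytosolic and mitochondrial chaperones 2 fell and 3 rose, in that order of lines. The peptide loading partners of CALR and PDIA3 rose for 9 of 11 genes in each line, with medians of 0.92 and 1.08, and B2M, the class I light chain and the gene at the median in each line, rose by 0.92 ± 0.04 and 1.08 ± 0.04. With doxycycline in KRAB-D9 5 of these 11 fell (median -0.31), with B2M at -0.21 ± 0.04. In D2000 5 rose and 1 fell (median 0.31), with TAPBP at 0.46 ± 0.05, TAP2 at -0.88 ± 0.07 and B2M not called (-0.01 ± 0.04).

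**Figure D5:**
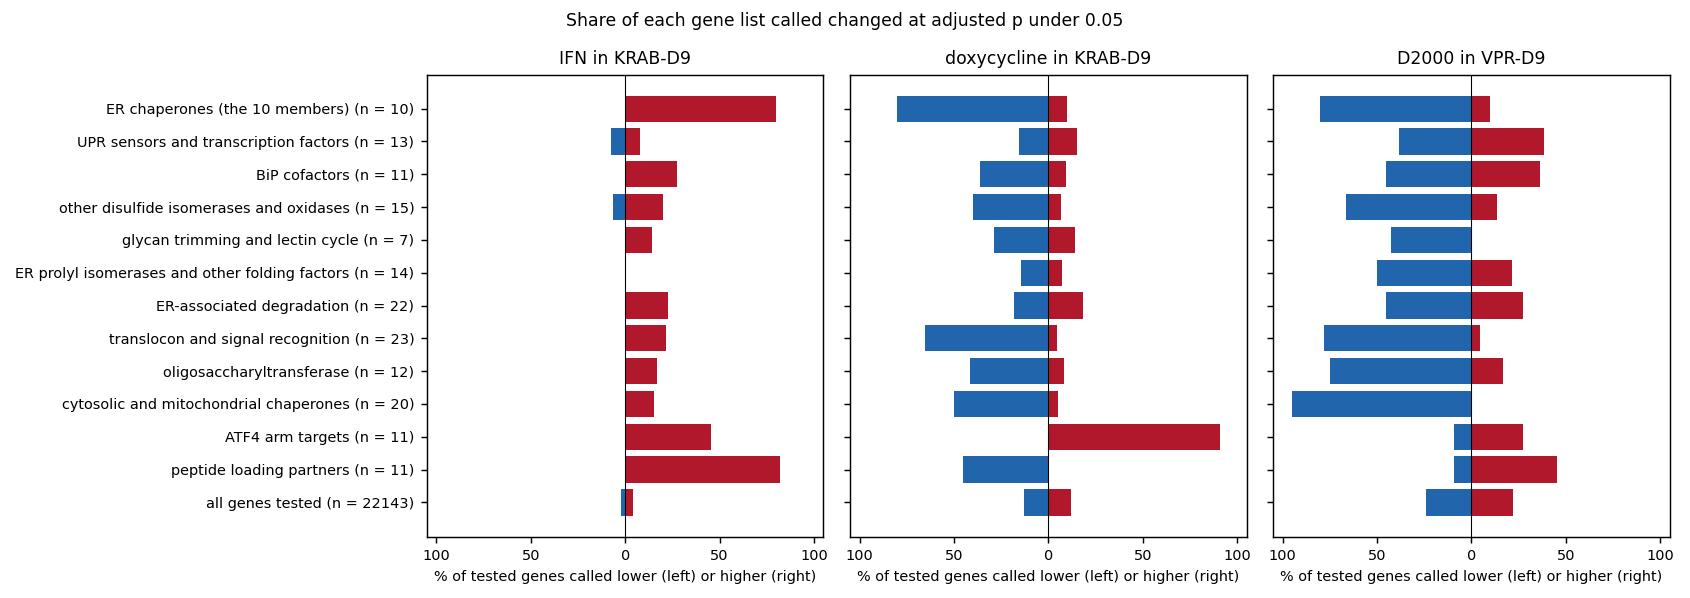
Percent of the tested genes of each list called higher (red, right) or lower (blue, left) at adjusted p under 0.05 for IFN and doxycycline in KRAB-D9 and for D2000 in VPR-D9, with the 10 members on top and all 22143 genes at the bottom. The members stand at 8 of 10 higher with IFN and 8 of 10 lower with doxycycline and D2000, and in D2000 the cytosolic and mitochondrial chaperones (19 of 20) and translocon genes (18 of 23) are lower too.

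Across the 9 group means of log2 CPM, HSPA5 ran closest to HSP90B1 (Pearson r = 0.99) and CALR (0.98) among the members, and SDF2L1 ran closest to PDIA4 (0.98). DNAJB9 had r from -0.53 (CANX) to -0.12 (HERPUD1) with the other members. HERPUD1 had r of 0.66 or less with each of them. The points share lines and treatments, so these values only describe the 9 groups. Of 13541 other genes with a mean of at least 1 CPM, those most like HSPA5 were ZHX1 (0.99), TRIM67 (0.99), SSR3 (0.99), PODXL2 (0.99), SLCO4A1 (0.98) and SSR1 (0.98). SSR3 and SSR1 are subunits of the translocon-associated protein complex. Those most like CALR were ZHX1 (0.99), MYDGF (0.98), GPR63 (0.98), PHLDA2 (0.97), TRIM67 (0.97) and INTS7 (0.97). Chosen after its values were seen, the same measure for HERPUD1 gave ACSL3 (0.97), the ATF4 target CHAC1 (0.96) and the stress factor ATF3 (0.96). COPB1 (0.96), ZNF792 (0.96) and RP11-61J19.7 (0.95) completed its 6 most alike genes.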

How the data were processed

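RNA from 18 polyA-selected, stranded libraries was analysed. The authors deposited raw counts per gene, with a length for each. Per the submitters' processing notes, featureCounts 2.0.2, STAR 2.7.8a, cutadapt 2.10 and FastQC 0.11.9 served with build GRCh38.p13, in no stated order. Annotation release, strand setting and multi-mapping reads are not described there, so HSPA5, HSP90B1 and PDIA3, which have processed pseudogenes, are uncertain to that extent. After filterByExpr and TMM scaling, edgeR 4.0.16 (R 4.3.3) fitted a robust quasi-likelihood model with a mean for each of 9 groups (9 residual degrees of freedom, common biological coefficient of variation 0.0569). A gene was called where its Benjamini-Hochberg adjusted p, over 22143 genes, was under 0.05, in each of 14 comparisons. A standard error is the log2 fold change divided by the root of F. Whether the 2 libraries of a group are separate cultures is not stated, and p-values cover only the spread between them, which may be technical. No 2 libraries were identical. Groups of 2 libraries can fail to overlap for a gene that is not called, and the share of all genes without overlap was not counted. Alternatives were other scalings, no filter, DESeq2 1.42.0, only the compared groups, a replicate block and leaving out each library. The named genes were the 10 members, SAMD9, up to 3 called genes of smallest adjusted p per list, and the 6 genes most like HSPA5 and CALR. Those most like HERPUD1 were added after its values were seen. Members and lists were chosen with earlier results of these data known. Comparisons within a line share control libraries. Some cell type markers are not reported here.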

Additional observations from a re-analysis of the deposited data

Results flagged for a closer look

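The difference between effects passed its own test for 8 results. Within KRAB-D9 the IFN effect on HSP90B1 differed with doxycycline (-0.24, edgeR Benjamini-Hochberg adjusted p = 0.0242). Between D2000 in VPR-D9 and doxycycline in KRAB-D9, the effect differed for CANX (-0.52, edgeR Benjamini-Hochberg adjusted p = 1.53e-11), SDF2L1 (-0.58, 1.56e-06), PDIA3 (-0.30, 2.08e-05), HSP90B1 (-0.21, 0.00121), HSPA5 (-0.19, 0.00451), PDIA6 (-0.19, 0.0107) and DNAJB9 (0.40, 0.00972). With library totals the CANX, SDF2L1 and DNAJB9 calls were kept and the other 4 lost. Leaving out each library showed which calls were lost in a refit, but such a refit leaves 1 library in a group and fewer degrees of freedom. A lost call therefore does not by itself show that a result rests on 1 library. PDIA4 in D6 stayed at -0.13 without D6 replicate 2, while SDF2L1 with IFN in KRAB-D9 moved from 0.27 to 0.13 without IFN replicate 2. Within a group of 2 it cannot be told which library is outlying.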

How the results depend on the processing

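Of 1520 values of a member under an alternative, 1429 kept their call, 73 lost it, 15 gained it and 3 reversed. The 3 were the differences between D2000 and KRAB-D9 doxycycline effects with library totals, 0.00 for HSPA5, 0.00 for PDIA6 and 0.15 for CALR (0.0027, 0.0035 and 0.1492 before rounding). A further 31 values that were never called changed sign, none over 0.16 in size. Counts of called members moved by over 1.5 times as follows. For D6 in VPR-D9, 7 became 4 with library totals and 4 with no filter. For the D2000 and KRAB-D9 difference, 7 became 4 with library totals. For IFN in KRAB-D9, 8 became 4, and for the interaction 1 became 0, with only the compared groups. For the IFN difference between lines, 0 became 1 with DESeq2. Leaving out single libraries gave 5 to 7 for IFN in KRAB-D9 with doxycycline (8 with all), 4 to 5 for D6, 0 to 2 for the interaction, 0 to 2 for the IFN difference between lines and 3 to 7 for untreated KRAB-D9 against parental (7 with all). Where fewer libraries enter, the test has fewer degrees of freedom; otherwise the cause was not tested. A lone library left in a group is assumed to vary like the other groups. Replicate numbers left no shared deviation in the counts: deviations of same-numbered libraries correlated at -0.02 to 0.032 over 36 pairs of groups. Such values cannot tell whether same-numbered libraries were handled together. With a replicate block the counts of called members were as without it in all 14 comparisons, for example 9 for doxycycline in KRAB-D9 and 8 for IFN in KRAB-D9.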
